A study of Homo sapiens with 15 samples.

Results

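A set of 10 genes of squamous differentiation and of the cornified envelope were followed through the RNA libraries of an oral epithelial line and of a pair of oral cancer lines. They were chosen by symbol, as IVL, SPRR1A, SPRR1B, SPRR3, TGM1, SFN, CSTA, LCN2, PI3 and SERPINB5, and all 10 were found among the 12995 genes of the tables. The study comprised 15 libraries in 5 groups of 3. OKF6 is a normal oral epithelial line, labelled wild type. SCC15 and SCC25 are oral cancer lines that carried Cas9 and a guide RNA against YBX1 under the control of doxycycline, in both of their groups, and were sorted for the fluorescent markers of these constructs. In the +YBX1 groups the guide was not induced. The –YBX1 groups, whose genotype the labels give as YBX1 knockout, received 1 µg/mL doxycycline for 3 days. The sample titles carry YBX1KO in both groups, with DOXneg for +YBX1 and DOXpos for –YBX1. The SCC15 and SCC25 +YBX1 libraries served both as the lines compared with OKF6 and as the untreated arm of the knockdown, so these comparisons share libraries. The medium was keratinocyte serum-free medium for OKF6 and for SCC25, whereas SCC15 was kept in DMEM with serum. Line and medium therefore cannot be told apart where SCC15 is compared. Nor can line and constructs where a cancer line is compared with OKF6.

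In a stratified epithelium, keratinocytes leave the basal layer, stop dividing and build the cornified envelope, a shell of crosslinked protein under the plasma membrane. Involucrin and the small proline-rich (SPRR) proteins are its precursors, and transglutaminases join them. The same layers express inhibitors of serine and cysteine proteases and secreted proteins of mucosal defence. In oral epithelium, SPRR3 is typical of the non-keratinised lining, and loss of envelope genes is a familiar feature of poorly differentiated squamous carcinoma.

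The envelope members lie together. IVL, SPRR1A, SPRR3 and SPRR1B stand in this order on the forward strand of chromosome 1 within 124 kb, from 152908546 to 153032900 of hg38. IVL spans 152908546 to 152911886, SPRR1A 152984081 to 152985814, SPRR3 153001747 to 153003856 and SPRR1B 153031203 to 153032900. SFN lies elsewhere on chromosome 1 (26863149 to 26864456), TGM1 on the reverse strand of chromosome 14 (24249114 to 24264432), CSTA on chromosome 3 (122325248 to 122341969), LCN2 on chromosome 9 (128149071 to 128153453), PI3 on chromosome 20 (45174902 to 45176544) and SERPINB5 on chromosome 18 (63476958 to 63505085). These are protein-coding genes in the GENCODE annotation, and the 3′ sequencing used here counts reads near their last exon.

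A promoter sequence of RefSeq (GRCh38.p14), from 250 bases before to 50 bases after the start site, was matched for 7 of the 10 members. All 7 contained the AP-1 motif TGANTCA (either strand), the sequence bound by the JUN and FOS proteins. It occurred in 7.71% of all 35116 promoters of the same length, in 4.67% of the 10053 promoters of genes in the tables, and in 9.34% of the 1596 promoters of genes that were lower in SCC15 than in both other lines. The TATA box TATAAA was present in IVL, SPRR1A and SPRR3, against 11.5% of all promoters. The GRHL motif AACCNGTT was in none of the 7 windows and in 1.73% of all promoters, the CCAAT box CCAAT was in 3 of the 7 and in 34.6% of all, and the KLF motif CACCC was in 5 of the 7 and in 59.9% of all. The 180 bases before the start site are shown for the 4 neighbouring envelope genes and for SFN, because the results turn on how these genes part from one another, with AP-1 motifs and TATA boxes in capitals.
IVL (chr1:152908366-152908545, +): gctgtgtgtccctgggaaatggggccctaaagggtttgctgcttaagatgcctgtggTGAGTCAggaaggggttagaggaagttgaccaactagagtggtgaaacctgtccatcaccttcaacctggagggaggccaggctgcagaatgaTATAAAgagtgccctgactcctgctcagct
SPRR1A (chr1:152983901-152984080, +): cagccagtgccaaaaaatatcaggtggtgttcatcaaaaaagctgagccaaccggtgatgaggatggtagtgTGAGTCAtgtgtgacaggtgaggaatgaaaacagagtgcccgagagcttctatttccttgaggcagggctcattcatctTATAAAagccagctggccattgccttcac
SPRR1B (chr1:153031023-153031202, +): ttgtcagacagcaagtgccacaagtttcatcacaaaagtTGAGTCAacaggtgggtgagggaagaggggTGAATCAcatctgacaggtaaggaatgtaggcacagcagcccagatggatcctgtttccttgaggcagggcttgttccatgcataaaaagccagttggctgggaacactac
SPRR3 (chr1:153001569-153001748, +): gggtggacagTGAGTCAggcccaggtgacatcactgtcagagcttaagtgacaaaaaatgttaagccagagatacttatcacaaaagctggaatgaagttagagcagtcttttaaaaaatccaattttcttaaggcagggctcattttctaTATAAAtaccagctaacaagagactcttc
SFN (chr1:26862969-26863148, +): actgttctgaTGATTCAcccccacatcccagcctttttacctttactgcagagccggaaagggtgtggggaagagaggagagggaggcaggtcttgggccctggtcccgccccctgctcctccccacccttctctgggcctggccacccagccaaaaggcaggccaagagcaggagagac
The AP-1 motif began 123 bases before the start site in IVL, 108 in SPRR1A and 170 in both SPRR3 and SFN. SPRR1B held 2 of them, 141 and 111 bases before its start site, and lacked the TATAAA sequence that SPRR1A has 29 bases before its own. Aligned over the whole window, the SPRR1A and SPRR1B promoters were identical at 65.8% of positions. SPRR1A and SPRR3 were so at 54.9%, which is near the 52.4% of SPRR1A and IVL. Such matches describe the sequence and do not show that a factor was bound.

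Reads counted on genes lay between 4075290 and 6118501 per library. Values are log2 CPM, that is log2 of the reads on a gene, with 0.5 added, per 1000000 of a normalised library size that the authors had set. This size ran from 4434132 to 7238680 and differed from the counted reads, being above them in every SCC15 library and below them in every SCC25 library. Whole reads could be recovered from them. Because 3′ counts depend on each gene's end, levels are compared between samples and not between genes. A gene with at most 3 reads in each library of a group was taken as at the floor there. Replicate libraries differed by more than counting noise, and nothing in the labels says whether they came from separate cultures, so p values measure the spread between these libraries. In bulk RNA, fewer cells with a transcript and less transcript per cell cannot be told apart. SCC15 itself had low epithelial marker RNA, and all 10 such markers, CDH1 and KRT19 among them, were lower than in SCC25.

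YBX1, the targeted gene, served as the check of the labels. It was at 108, 285 and 330.4 CPM in OKF6, 34.5, 47.1 and 63.8 CPM in SCC15 +YBX1, 10.3, 13.1 and 8.75 CPM in SCC15 –YBX1, 107, 79.1 and 98.0 CPM in SCC25 +YBX1, and 38.4, 26.1 and 12.6 CPM in SCC25 –YBX1. Every –YBX1 library was thus below every +YBX1 library of its line.

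**Figure D1:**
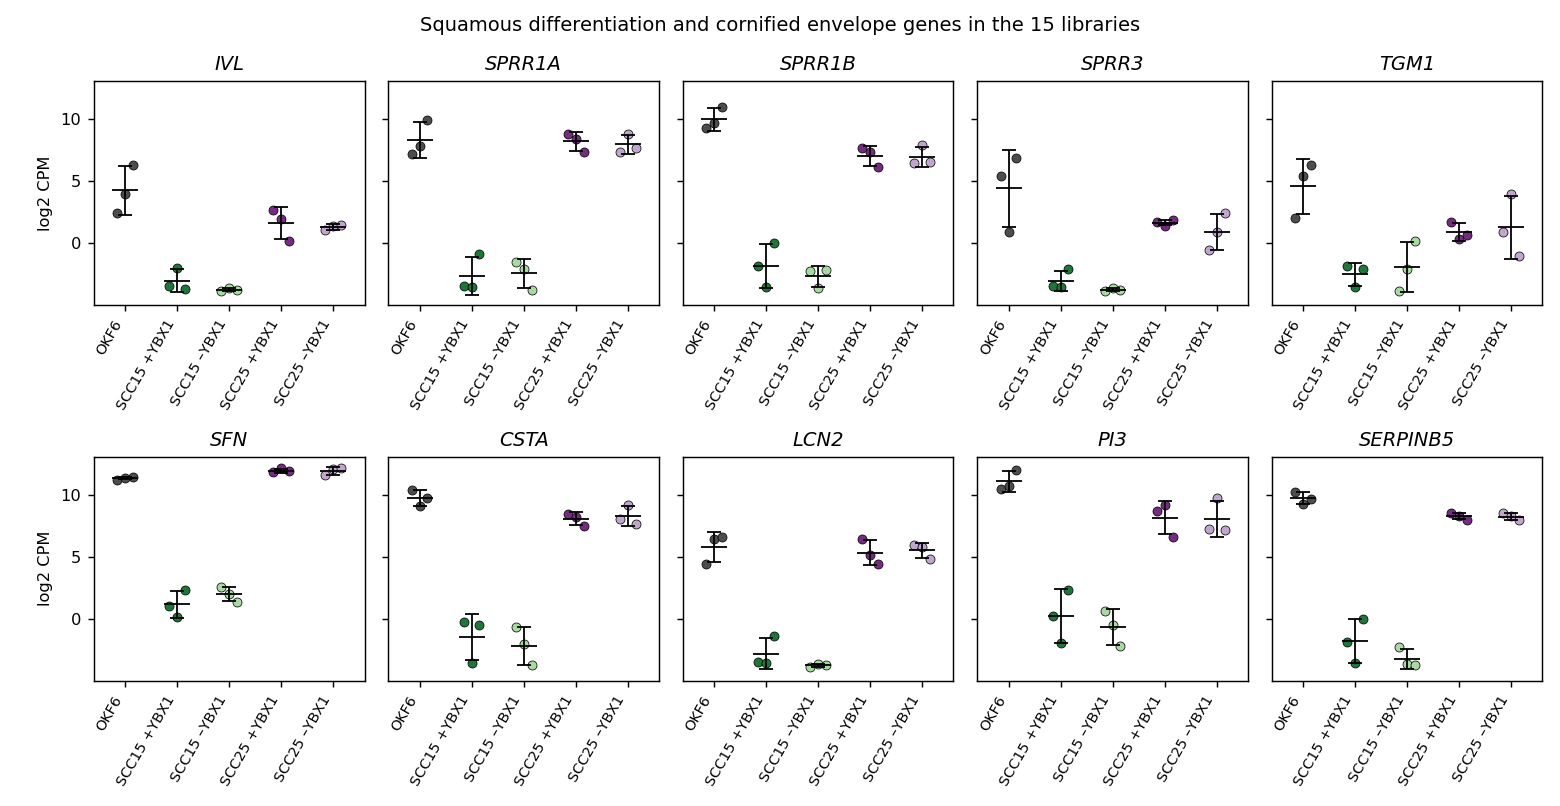
Log2 CPM of each of the 10 genes (one panel per gene, shared vertical axis) in the 5 groups. Points are libraries, the horizontal bar is the mean and the whiskers are the SD of 3 libraries. For all 10 genes the SCC15 +YBX1 points lie below the OKF6 and SCC25 +YBX1 points.

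The first question was how the cancer lines differ from each other. All 10 members were lower in SCC15 than in SCC25 and passed an adjusted p of 0.05 (limma, Benjamini-Hochberg over all genes), where 23.6% of all genes were called lower and 20% higher. In all 10 the replicates of both lines did not overlap, as was the case for 66.6% of all genes. The median log2 change of the members was -8.53, against -0.01 over all genes. Of the 10, 5 had at most 3 reads in each SCC15 +YBX1 library, namely IVL, SPRR1A, SPRR3, TGM1 and LCN2. These could have passed the authors' filter only through other groups, so that some difference between the lines was to be found, and the counts and medians above are a description and no support for their direction. Their ratios are given from the reads, since a fitted fold against so few reads depends on the 0.5 reads added. SPRR1B, CSTA and SERPINB5 had 0 reads in SCC15 +YBX1 replicate 2 and at most 6 in any library of that group. The fitted folds of these genes against either line depend on the 0.5 reads too, and the same limit on counts and medians applies to them. In SCC25 against SCC15 their summed counts, scaled by library size, stood at 385, 642 and 825 to 1.

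SFN, which encodes stratifin (14-3-3 sigma), a cell cycle inhibitor of differentiating keratinocytes, was abundant in SCC25. SCC25 +YBX1 had 19405, 23003 and 18720 reads of SFN and SCC15 +YBX1 had 11, 6 and 32. The log2 change was -10.79 with a standard error of 0.42 (adjusted p = 5.46e-08, limma), and the summed counts, scaled by library size, stood at 1470 to 1 (95% exact interval 1112 to 1987, counting error only). The other 14-3-3 genes were at high levels in both lines. YWHAZ fell by 1.31 on the log2 scale, YWHAB by 0.91 and YWHAQ by 0.88, with adjusted p from 0.00336 to 0.0220 (limma), while YWHAE differed by 0.19, YWHAG by -0.19 and YWHAH by 0.33 without passing. Under quantile normalization YWHAG turned to 0.12, YWHAB lost its call (-0.58, adjusted p = 0.118) and YWHAH was called higher (0.57, adjusted p = 0.0226). YWHAB lost its call also without SCC15 +YBX1 replicate 1 (0.0626) or SCC25 +YBX1 replicate 3 (0.0564). YWHAQ lost its call with library medians set equal (0.0626), with no variance trend (0.0512) and without any of 5 of the 6 libraries, the exception being SCC15 +YBX1 replicate 2. Of the 7 genes of this family in the tables, SFN alone had a group with fewer than 100 reads per library.

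Among the envelope precursors, SPRR1A had 2399, 1774 and 801 reads in SCC25 +YBX1, and 0, 0 and 3 in SCC15 +YBX1. The counts stood at 1953 to 1 (95% exact interval 668 to 9476). SPRR1B had 1095, 847 and 345 reads against 1, 0 and 6, which limma put at -8.89 on the log2 scale with a standard error of 0.79 (adjusted p = 6.49e-06). Both SPRR1 genes were therefore plainly present in every SCC25 library and close to absent in every SCC15 library.

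IVL and SPRR3 were low in SCC25 as well. IVL had 34, 19 and 5 reads in SCC25 +YBX1 and 0, 1 and 0 in SCC15 +YBX1, a ratio of 68.3 (95% exact interval 11.8 to 2745). SPRR3 had 17, 13 and 17 reads against 0, 0 and 1, a ratio of 55.4 (95% exact interval 9.47 to 2233). TGM1, the membrane-bound transglutaminase that joins these precursors, had 17, 6 and 7 reads against 1, 0 and 1, a ratio of 17.7 (95% exact interval 4.48 to 153). TGM1 was the least secure of the 10 and lost its call without SCC25 +YBX1 replicate 1 (adjusted p = 0.0680), without SCC15 +YBX1 replicate 2 (0.0695) and with voom weights (0.177), under which SPRR3 lost its call too (0.131).

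CSTA, SERPINB5, PI3 and the secreted LCN2 were lower in SCC15 as well. CSTA, cystatin A of the cysteine protease inhibitors, had 1919, 1568 and 871 reads in SCC25 +YBX1 and 4, 0 and 4 in SCC15 +YBX1 (log2 change -9.55, standard error 0.74). SERPINB5, known as maspin and described as a tumour suppressor of epithelia, had 2021, 1626 and 1257 against 1, 0 and 6 (-10.12, standard error 0.69). PI3, the elastase inhibitor elafin, which is itself crosslinked into the envelope, had 2259, 2919 and 485 against 6, 1 and 33 (-7.98, standard error 0.96). LCN2, lipocalin-2, which binds bacterial siderophores, had 468, 182 and 104 against 0, 0 and 2, a ratio of 444 (95% exact interval 123 to 3674). Adjusted p for these 4 lay at or below 6.37e-05 (limma).

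The few member reads of SCC15 were uneven. SCC15 +YBX1 replicate 3 had 88 reads on the 10 members together, replicate 1 had 24 and replicate 2 had 8. KRT5, which is no member but a keratin of basal keratinocytes, ranged from 2 to 53 reads in the same libraries.

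Against OKF6, SCC15 was again lower in all 10 members, all called (limma, adjusted p at most 0.000416), where 23.4% of all genes were lower and 26.9% higher. The replicates did not overlap for any of the 10, nor for 54.4% of all genes. The median log2 change was -10.54, against 0.10 over all genes. SPRR1B, with 3289, 3633 and 12331 reads in OKF6, changed most, by -11.81 (standard error 0.79). SERPINB5 had 6427, 2765 and 5007 reads in OKF6 (-11.57) and CSTA 7319, 2467 and 5170 (-11.24). PI3 had 7719, 7521 and 24936 (-10.89) and SFN 12700, 12020 and 16580 (-10.19). For the 5 members at the floor in SCC15, the ratio of counts ranged from 388 to 1 for TGM1 (95% exact interval 107 to 3210) to 2962 to 1 for SPRR1A (1013 to 14368).

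**Figure D2:**
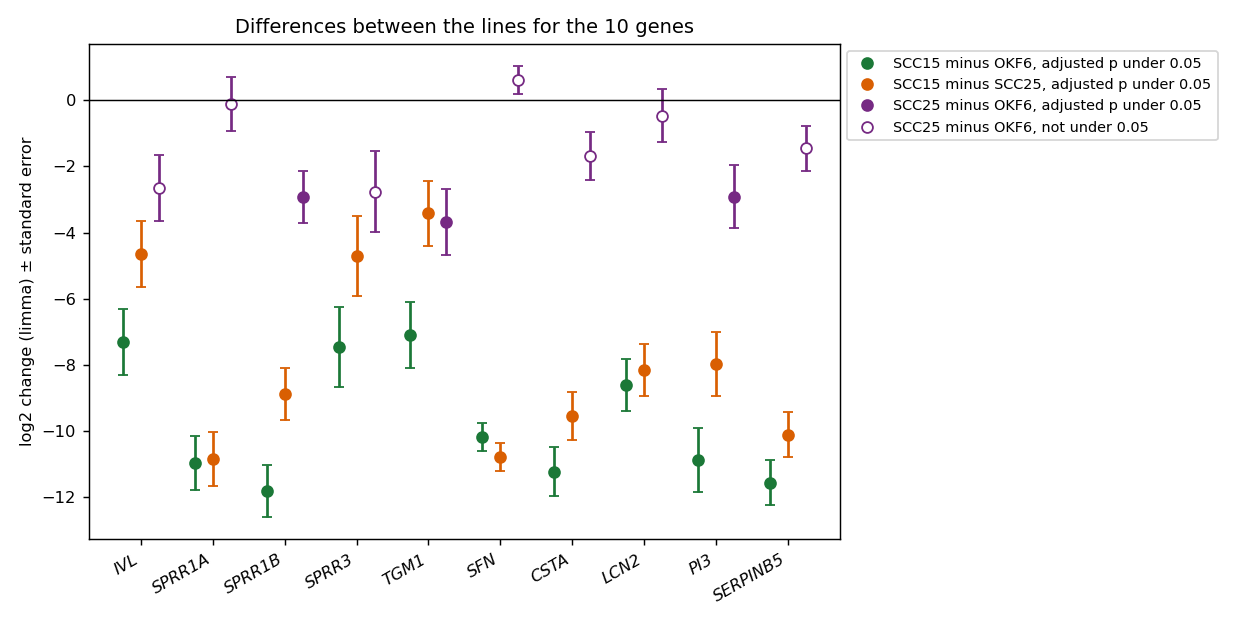
Log2 change (limma) with its standard error for the 10 genes in the 3 comparisons of the lines. Both comparisons of SCC15 lie between -3.42 and -11.81 for every gene, while SCC25 minus OKF6 runs from -3.69 for TGM1 to 0.60 for SFN. Filled points have an adjusted p under 0.05. The fitted value against SCC15 depends on the 0.5 reads added for the 5 genes at the floor there. It does so also for SPRR1B, CSTA and SERPINB5, which had 0 reads in SCC15 +YBX1 replicate 2.

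The second question was how SCC25, which grew in the same medium as OKF6 but carried the constructs, differs from the normal line. Here the members divided. SPRR1B, TGM1 and PI3 were lower in SCC25 and passed the test, none was called higher, and 7 did not pass. Among all genes 11.3% were called lower and 18.9% higher (1473 and 2450 genes), and quantile normalization gave 1837 lower and 2006 higher. The replicates did not overlap for 6 of the 10 members, against 43.3% of all genes, and the median log2 change of the members was -2.17, against 0.13 over all genes.

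SPRR1B fell by 2.92 (standard error 0.79, adjusted p = 0.0177, limma), from 630.2, 819 and 2079 CPM in OKF6 to 206, 167 and 71.8 in SCC25 +YBX1. TGM1 fell by 3.69 (standard error 0.99, adjusted p = 0.0176), from 21, 193 and 461 reads to 17, 6 and 7. PI3 fell by 2.91 (standard error 0.96, adjusted p = 0.0424), with every SCC25 +YBX1 library below every OKF6 library, as for TGM1 and SPRR1B. These calls rested on single libraries. OKF6 replicate 3 held the highest value of its group for 8 of the 10 members and SCC25 +YBX1 replicate 3 the lowest for 7, and without either of them 0 members were called. Without SCC25 +YBX1 replicate 2 only 1 was called, namely SPRR1B. TGM1 lost its call also without OKF6 replicate 2 (0.0522), and PI3 without OKF6 replicate 2 (0.0658) or SCC25 +YBX1 replicate 1 (0.0748). TGM1 did not pass with voom weights (0.0636), and PI3 with no variance trend (0.0779) or with the replicate block (0.0526).

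The other members had a lower value in SCC25 or were near OKF6. IVL was at 28, 70 and 483 reads in OKF6 and 34, 19 and 5 in SCC25 +YBX1, a log2 change of -2.65 (95% interval -4.84 to -0.46, adjusted p = 0.0664). IVL passed without OKF6 replicate 1, at -3.56 (adjusted p = 0.0123), with all 15 libraries in 1 fit (0.0236) and with 2 reads added (0.0412). SPRR3 was at 229, 8 and 696 reads in OKF6 against 17, 13 and 17, a change of -2.76 (adjusted p = 0.111) that became -4.50 and passed (adjusted p = 0.000864) without OKF6 replicate 2, the library with 8 reads. CSTA differed by -1.69 (adjusted p = 0.107) and SERPINB5 by -1.45 (adjusted p = 0.136), and neither had replicates that overlapped. Quantile normalization, which moved the median change of all genes from 0.13 to -0.05, called IVL, CSTA and SERPINB5 as well, 6 members in all. CSTA and SERPINB5 also passed with only the groups compared, with 2 reads added and with voom weights (adjusted p from 0.00478 to 0.0206). LCN2 differed by -0.46 (95% interval -2.20 to 1.28) and was at 110, 389 and 570 reads in OKF6 against 468, 182 and 104. SFN was the only member with a higher value in SCC25, 3647, 4531 and 3892 CPM against 2433, 2711 and 2795, and this difference of 0.60 did not pass (standard error 0.42, adjusted p = 0.312), although the groups did not overlap.

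SPRR1A and SPRR1B, neighbours that encode closely related proteins, differed from each other in this comparison. SPRR1A stood at 148, 226 and 1004 CPM in OKF6 and at 451, 350 and 167 CPM in SCC25 +YBX1, a log2 change of -0.12 (95% interval -1.92 to 1.68), where SPRR1B fell by 2.92. It turned to 0.70 without OKF6 replicate 3 and to 0.30 without SCC25 +YBX1 replicate 3. Within a library the ratio of both genes does not depend on scaling. SPRR1A made up 19.1%, 21.6% and 32.6% of the SPRR1A and SPRR1B reads in the OKF6 libraries, and 68.7%, 67.7% and 69.9% in SCC25 +YBX1. The log2 ratio of SPRR1A to SPRR1B was -1.66 ± 0.54 (SD, n = 3) in OKF6 and 1.14 ± 0.07 in SCC25 +YBX1, a difference of -2.80. This had an exact permutation p of 0.1 (two-sided), the smallest that 3 libraries against 3 can give. The difference stayed between -3.11 and -2.59 with any 1 of the 6 libraries left out. The largest share in OKF6 was that of replicate 3, which also had the most SPRR1 reads. The ratio was looked at after the values of both genes had been seen.

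**Figure D3:**
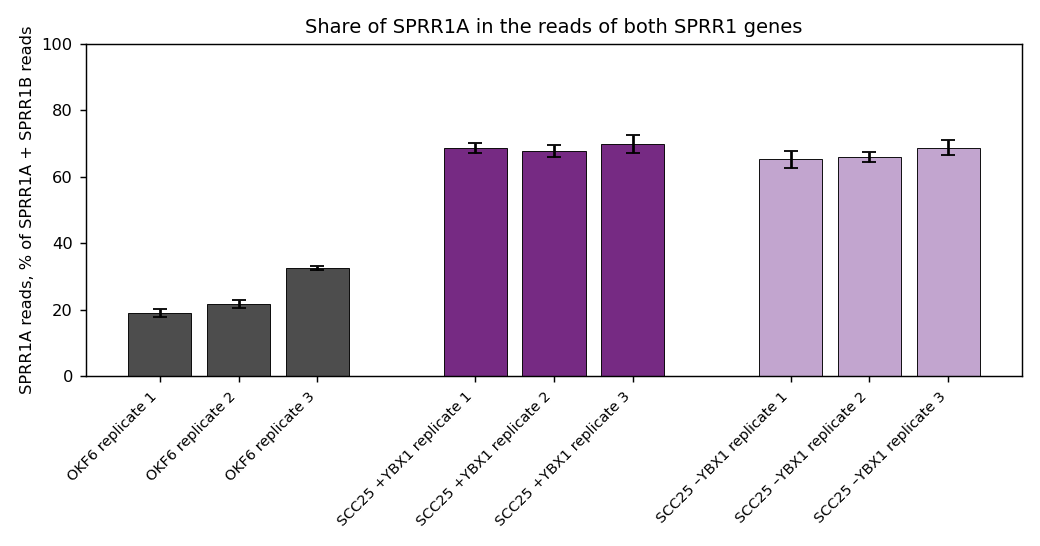
Reads of SPRR1A as a percentage of the SPRR1A and SPRR1B reads in each library of OKF6, SCC25 +YBX1 and SCC25 –YBX1. Whiskers are 95% exact binomial intervals, which cover counting error only. The 3 OKF6 bars end between 19.1% and 32.6%, and the 6 SCC25 bars between 65.3% and 69.9%.

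Whether reads could have been exchanged between the SPRR1 genes was checked on their sequence. Of 86 pieces of 75 bases from the last 500 bases of either transcript, 0 mapped equally well elsewhere in hg38. Of the SPRR1A pieces, 17.4% came within 2 differences of some stretch of SPRR1B, and of the SPRR1B pieces 23.3% came within 2 differences of SPRR1A. No piece was shared without a difference. With the reads of both genes summed, the log2 change between SCC25 and OKF6 was -1.65 (adjusted p = 0.182, limma). For the other 8 members none of the pieces that mapped whole had an equal match elsewhere.

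Further along the same stretch of chromosome 1 the SPRR2 genes, also envelope precursors, were measured. Within 200 kb of IVL and SPRR1B the tables held 10 genes, of which 6 were no members. SPRR2D, SPRR2A, SPRR2E and SPRR2G, on the reverse strand beyond SPRR1B, were all lower in SCC25 than in OKF6, by 4.23, 5.53, 4.30 and 4.71 on the log2 scale (adjusted p from 0.000827 to 0.00677, limma). SPRR2A fell from 4091 reads over the 3 OKF6 libraries to 72 over the 3 of SCC25. SPRR1A, with 7731 and 4974 reads, lay between IVL and SPRR3, neither of which passed the test. On the other side of IVL, LCE1C, a late envelope gene, was higher in SCC25 (3.56, adjusted p = 0.0156, 78 reads against 7) and KPRP did not pass (2.67, adjusted p = 0.181). The replicates of LCE1C overlapped, with 0 to 6 reads in the OKF6 libraries and 5 to 37 in those of SCC25 +YBX1. Up to 5.81% of the 3′ end pieces of the SPRR2 genes, those of SPRR2D, mapped equally well elsewhere, so their split from one another is less certain.

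The other genes of the pathway were read from lists written for this tissue. In SCC15 many of them were at the floor, namely 17 of 25 envelope genes, 14 of 26 protease inhibitors and proteases, 10 of 13 secreted defence genes, 9 of 25 transcription factors, 2 of 7 basal, 4 of 6 suprabasal and 2 of 10 epithelial markers. Such genes could have passed the filter only through other groups and had to differ, so that the counts of lower genes in SCC15 describe the lists and support no direction. Of 25 other envelope precursors and crosslinkers, 21 were lower and 0 higher in SCC15 than in SCC25, and 19 were lower than in OKF6, with median log2 changes of -5.40 and -5.91 (-4.60 and -5.60 with genes without a read in a group at their bound). CALML3, an epidermal calmodulin-like protein, had no read in SCC15 and was at least 242-fold lower than in SCC25, taking 3 reads per library as the floor, and EVPL, the envelope scaffold envoplakin, was at least 50.3-fold lower. EMP1 was lower by 7.19 on the log2 scale. In SCC25 against OKF6 the list had 7 genes lower and 3 higher, and SCEL, which encodes sciellin, fell by 5.56 beside SPRR2A and SPRR2G. The count of genes higher in SCC25 was 7 without OKF6 replicate 3 and 1 without SCC25 +YBX1 replicate 1 or 2.

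Of 26 other protease inhibitors and proteases of stratified epithelium, 21 were lower in SCC15 than in SCC25, with 0 higher, and 22 were lower than in OKF6, with 1 higher. SLPI, the secreted relative of PI3, fell by 9.77 against SCC25 and by 11.49 against OKF6, and SERPINB2 changed by -11.54 against OKF6. The membrane protease ST14 (3 reads in SCC15 against 1132 in SCC25), the membrane-anchored protease PRSS8 (at least 42.0-fold lower) and the kallikrein KLK5 (2 reads against 1858 in OKF6) were also lower. SCC25 had 13 of the list lower than OKF6, among them A2ML1 (-4.67) and SERPINB2 (-4.62), and 1 higher, TMPRSS11D (3.99, 60 reads against 6). Of 13 other secreted defence genes, 12 were lower in SCC15 than in SCC25 and all 13 lower than in OKF6, including IL1RN (at least 99.4-fold lower than in SCC25), S100A7, S100A8 (-8.51 against SCC25, -11.21 against OKF6) and S100A9. SCC25 had 5 of them lower than OKF6, among them IL36RN (-4.79), IL36G (-2.40) and C3 (-1.88). IL36G lost its call without OKF6 replicate 3 or SCC25 +YBX1 replicate 3, and C3 without any one of the SCC25 +YBX1 libraries. The count stayed at 5 without OKF6 replicate 1 and was 3 without OKF6 replicate 2 or SCC25 +YBX1 replicate 1, 2 without OKF6 replicate 3 or SCC25 +YBX1 replicate 2, and 1 without SCC25 +YBX1 replicate 3.

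Of 25 transcription factors of squamous differentiation, 18 were lower and 3 higher in SCC15 than in SCC25, and 20 were lower and 2 higher than in OKF6. TP63, a central regulator of stratified epithelium, had 1 read over the 3 SCC15 libraries, 2260 in SCC25 and 2011 in OKF6, and BNC1 had 1, 1666 and 2092. EHF had 1 read in SCC15 against 1863 in OKF6. SCC25 had 7 of these factors lower than OKF6 and 0 higher, and ZNF750 and GRHL3, which act late in keratinocyte differentiation, fell by 3.04 and 2.97. The count was 3 without OKF6 replicate 3 and 4 without SCC25 +YBX1 replicate 3. The call of ZNF750 was lost without OKF6 replicate 3 (adjusted p = 0.104) or SCC25 +YBX1 replicate 3 (0.0937), and also with the replicate block (0.0503), with only the groups compared (0.0799) and with all 15 libraries in 1 fit (0.0654).

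Markers of cell type moved with the members, and their part in the differences was not tested. All 7 basal keratinocyte markers were lower in SCC15 than in either line, among them KRT5 with a log2 change of -10.83 against SCC25 and -11.92 against OKF6, and their summed level ran from 11.3 to 29.3 CPM in SCC15 +YBX1, 5398 to 9610 in SCC25 +YBX1 and 9413 to 17700 in OKF6. All 6 measured suprabasal markers were lower in SCC15 than in either line, with KRT16 falling by 9.59 against SCC25 and KRT1, KRT4 and KRT13 at 0 to 1 read in each SCC15 +YBX1 library. Their summed level was 80.4 to 83.6 CPM in SCC15 +YBX1, 232 to 699 in SCC25 +YBX1 and 420 to 1518 in OKF6. In SCC15 +YBX1, 4 of the 6 were at the floor and KRT16 had 11 reads in all. The sum there comes almost wholly from the remaining marker and does not stand for the list. Of the 10 epithelial markers 9 were called lower than in OKF6, with a sum of 216 to 263 CPM in SCC15 +YBX1 against 4402 to 4947. Among 7 fibroblast and mesenchymal markers, 4 were higher and 3 lower in SCC15 than in SCC25, with SPARC at 6.28, ZEB1 at 3.55 and FN1 at -6.79, and 4 were higher and 1 lower than in OKF6. Their summed level was 441 to 480 CPM in SCC15 +YBX1, 2455 to 3232 in SCC25 +YBX1 and 803 to 1932 in OKF6. This sum is weighted to the abundant FN1, with 319 reads over the SCC15 +YBX1 libraries, 29295 in SCC25 +YBX1 and 16147 in OKF6. It therefore does not stand for the list as a whole. Of the leukocyte markers, CD68 had a log2 change of -6.28 in SCC15 against SCC25.

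Of the basal markers 2 were lower in SCC25 than in OKF6, KRT15 (-1.73) and ITGA6 (-0.87), of the suprabasal markers 1, KRT4 (-2.38), and of the epithelial markers DSP was lower (-0.90) and KRT8 (2.97) and KRT18 (1.15), keratins of simple epithelium, were higher. KRT15 lost its call without OKF6 replicate 2 or SCC25 +YBX1 replicate 2 or 3, and DSP without SCC25 +YBX1 replicate 3 (adjusted p = 0.0768). SPARC was lower by 8.06 and CDH2 at least 18.9-fold higher among the mesenchymal markers, of which 3 were higher and 1 lower. Of the other 14-3-3 genes, SCC15 had 4 lower and 1 higher than OKF6, YWHAE (1.97), and SCC25 had YWHAB (-0.75) and YWHAH (-0.58) lower and YWHAE (1.78) higher. Leaving out single libraries removed the call of each of these 3 in SCC25, and in SCC15 that of YWHAE (without OKF6 replicate 3 or SCC15 +YBX1 replicate 1 or 2) and of YWHAG (without SCC15 +YBX1 replicate 1 or 3). YWHAG lost its call in SCC15 also with only the groups compared (adjusted p = 0.0563), library medians set equal (0.0850) and no variance trend (0.0555). With only the groups compared or no variance trend the 3 calls in SCC25 were lost as well, and that of YWHAH also with the replicate block or all 15 libraries in 1 fit, while quantile normalization called YWHAG lower in SCC25 (-0.76).

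The genes whose log2 values were most like the mean of the members over the 15 libraries were SLPI (Pearson r 0.994), GRHL2 (0.993), KRT17 (0.992), KRT5 (0.992) and ITGB4 (0.991), outside the members. The points share their libraries, and the 6 of SCC15 lie far from the rest, so that r describes little more than this gap. Among the members r with that mean was 0.996 for SPRR1B and 0.991 for SERPINB5, while SPRR3 (0.908) and TGM1 (0.824) followed it least. The mean includes each member, which raises its r, so these values are not on a par with those of the other genes.

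The third question was whether lowering YBX1 changed these genes. In SCC25, 0 of the 10 members were called, as were 0% of all genes, and 0 had an unadjusted p under 0.05, against 401 of all genes (limma). Without SCC25 –YBX1 replicate 2, 6 genes were called lower, none of them a member. In none of the 10 were the replicates of both groups without overlap, as they were for 7.31% of all genes. The median log2 change of the members was -0.08, against -0.02 over all genes, and single values ran from -0.74 for SPRR3 to 0.37 for TGM1. YBX1 itself changed by -2.01 (standard error 0.35, adjusted p = 0.290, unadjusted p = 4.97e-05).

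SFN and SERPINB5 had the steadiest levels. SFN was at 3647, 4531 and 3892 CPM in SCC25 +YBX1 and 3130, 4454 and 4599 in SCC25 –YBX1, a log2 change of -0.0015 with a 95% interval of -0.91 to 0.90 in limma. SERPINB5 differed by -0.05 (95% interval -1.50 to 1.40), with same-numbered libraries at -0.04, -0.05 and -0.07. The limma intervals take in the spread of all 4 groups, SCC15 included. SFN turned to 0.03 under quantile normalization. For the other members the intervals were wider than that of SFN, with the widest from -2.09 to 2.83 for TGM1 and next from -2.36 to 2.10 for PI3, so that changes of several fold in either direction were not detectable.

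The 3 same-numbered pairs of SCC25 libraries did not move one way. In the first pair 0 of the 10 members were higher in –YBX1, with a median of -1.02, in the second pair 6 were higher, with a median of 0.46, and in the third 8 were, with a median of 0.36. SPRR1A went by -1.46, 0.41 and 0.33, SPRR1B by -1.24, 0.51 and 0.41, and PI3 by -1.45, 0.57 and 0.49. TGM1 went by -0.80, 3.61 and -1.70, from 17, 6 and 7 reads to 9, 80 and 2, its 80 reads being in SCC25 –YBX1 replicate 2. With the replicate number as a block the members called were still 0 in both lines. The share of SPRR1A within the SPRR1 reads was 65.3%, 66.1% and 68.8% in SCC25 –YBX1, and the log2 ratio differed by -0.13 from that of SCC25 +YBX1 (exact permutation p = 0.3, two-sided).

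**Figure D4:**
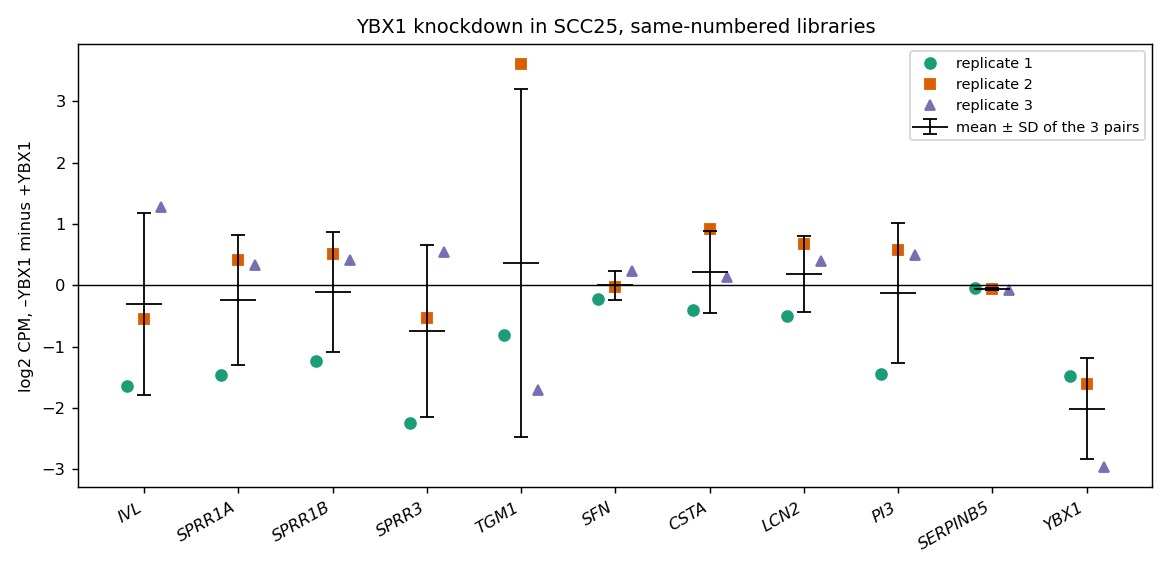
Difference in log2 CPM between same-numbered –YBX1 and +YBX1 libraries of SCC25 for the 10 genes and YBX1, one symbol per replicate number, with the mean and SD of the 3 pairs. YBX1 lies below zero in all 3 pairs, and of the 10 genes SERPINB5 alone does, at -0.04 to -0.07.

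In SCC15, 0 of the 10 members and 0% of all genes were called, with 0 members and 302 of all genes at an unadjusted p under 0.05 (limma). IVL, SPRR1A, SPRR3 and LCN2 were at the floor in both groups, and no fold is given for them. SFN had 11, 6 and 32 reads in SCC15 +YBX1 and 42, 25 and 17 in SCC15 –YBX1, a log2 change of 0.82 (95% interval -0.09 to 1.72, unadjusted p = 0.0725). SERPINB5 had 1, 0 and 6 reads against 1, 0 and 0 (unadjusted p = 0.0570). PI3 had 6, 1 and 33 against 11, 4 and 1. The other counts were as small: SPRR1B had 1, 0 and 6 against 1, 0 and 1, CSTA 4, 0 and 4 against 4, 1 and 0, and TGM1 1, 0 and 1 against 0, 1 and 7. The replicates did not overlap for 2 members, SPRR3 and LCN2, both at the floor, against 7.04% of all genes. At these counts a change was not detectable. For all 10 members every SCC15 –YBX1 library lay below every OKF6 and SCC25 +YBX1 library, and TGM1 came closest to them. The knockdown difference itself did not pass between the lines for any member, the smallest unadjusted p being 0.180 for SERPINB5, with 0% of all genes called and 294 at an unadjusted p under 0.05. None of the genes in the other lists was called in either line.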

How the data were processed

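The deposited values were log2 CPM, which the authors made from QuantSeq 3′ FWD reads with Cutadapt, HISAT2, featureCounts and limma on hg38, with 0.5 reads added and scaled to a normalised library size, after a filter on low counts. A table of 9 libraries held the 3 lines and a table of 12 held the YBX1 experiment, and the 6 libraries in both had the same values to within 5e-08. Whole reads could be recovered for 100% of values (tolerance 0.05 reads). Total reads lay between 4075290 and 6118501 per library, and the chi-square per degree of freedom between replicate libraries ran from 3.99 to 80.8, so that replicates differed beyond counting noise. Intervals of read ratios and shares are exact, at 95%, and cover counting error only.

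Groups followed the labels. The deposited values were fitted as they stood with limma 3.58.1 (R 4.3.3), with a group means model per table, lmFit, and eBayes with a variance trend. Tests were two-sided, and p values were adjusted by Benjamini-Hochberg over 12995 genes, with a threshold of 0.05. The script was tested on simulated data. Deviations from the group means were correlated across 6497 genes between libraries of one line with the same replicate number. The correlations were 0.498, 0.312 and 0.117 in SCC15 and 0.135, 0.470 and 0.425 in SCC25. Between OKF6 and SCC25 –YBX1, which are different lines, they were 0.467, 0.273 and 0.085. Libraries with unlike numbers were not compared, so these values cannot show whether libraries were paired. The main fit had no block for the replicate number. Alternatives were the replicate block, other sets of libraries, other scalings, no trend, a robust fit, a filter, 2 reads added, voom weights, SPRR1A and SPRR1B summed, and each library left out. The alternatives for the SPRR1A to SPRR1B ratio were chosen after seeing the data.

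The members and the lists were chosen with earlier results of these data known. Named genes are YBX1, the members, the other 14-3-3 genes, the measured neighbours within 200 kb of IVL and SPRR1B, up to 3 genes per list and comparison of the lines with the largest change among those called without overlap and with over 3 reads in every library of a group, and the genes most like the members. Genes given besides these were chosen after their values were seen. Some genes that the rule names are not reported here. Positions are from GENCODE for hg38, promoters from RefSeq (GRCh38.p14), and pieces of 75 bases, 5 bases apart, were mapped with minimap2 2.31. Promoters were aligned with Biopython 1.88, exact tests used scipy 1.17.1, and the plots were drawn with matplotlib 3.10.9.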

Additional observations from a re-analysis of the deposited data

How the results depend on the processing

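Refits of single genes numbered 2373, of which 2243 kept direction and side of the threshold, 82 lost a call, 17 gained one and 31 turned in direction. In SCC15 against OKF6 the members kept both in 166 of 166 refits, and in SCC15 against SCC25 in 162 of 166, the others being losses by TGM1 and SPRR3. With single libraries left out, 9 to 10 members were called in SCC15 against SCC25. In SCC25 against OKF6, where 3 members were called, the number was 5 with only the groups compared, 6 under quantile normalization, 6 with 2 reads added, 2 with the replicate block (PI3 lost, adjusted p = 0.0526), and 0 to 4 with single libraries left out. TGM1 lost its call with voom weights (adjusted p = 0.0636) and PI3 with no variance trend (0.0779). The cause was not tested.

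The replicate block left the members called at 0 in both lines of the YBX1 experiment and in the difference between the lines, and the mean SPRR1A to SPRR1B ratio over pairs was the same -0.13. With single libraries left out that ratio ran from -0.20 to -0.09. Scaling moved the median change of all genes in SCC25 against OKF6 from 0.13 to -0.05 (quantile), in SCC15 against SCC25 from -0.01 to 0.14 (equal medians) and 0.17 (quantile), and in SCC15 against OKF6 from 0.10 to 0.26 (equal medians). Quantile normalization turned YWHAG (SCC15 against SCC25) to 0.12, YWHAZ (SCC25 against OKF6) to -0.10 and SFN (SCC25 knockdown) to 0.035.

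Directions turned within these ranges with single libraries left out. In SCC25 against OKF6, SPRR1A ran from -0.68 to 0.70, YWHAQ from -0.50 to 0.062 and YWHAZ from -0.22 to 0.39. In the SCC25 knockdown, IVL ran from -1.01 to 0.24, SPRR1A from -0.68 to 0.071, SPRR1B from -0.57 to 0.20, TGM1 from -0.98 to 1.54, SFN from -0.10 to 0.18, CSTA from -0.23 to 0.55, LCN2 from -0.27 to 0.74, PI3 from -0.97 to 0.36 and SERPINB5 from -0.19 to 0.093. In the SCC15 knockdown, SPRR1B ran from -1.75 to 0.033, TGM1 from -0.43 to 1.58, CSTA from -1.75 to 0.094 and PI3 from -1.96 to 0.22. The depth limits what the members' few reads in SCC15 can show.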
